A study of Mus musculus with 6 samples.

Results

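The annexins and the S100 proteins that bind them were followed as a set of 10 genes, the annexin genes Anxa1, Anxa2, Anxa3, Anxa4, Anxa5 and Anxa6 and the S100 genes S100a4, S100a6, S100a10 and S100a11. They were taken by symbol, as a family and its known partners, out of 19054 genes named on the array. Every probe that carries one of these symbols was used, which gave 16 probes. RNA of whole embryonic kidneys at day E18.5 had been read on Illumina bead arrays, which report the brightness of 1 colour for each probe. In each of 3 litters, kidneys of 2 embryos were pooled per genotype, so that each litter gave 1 control pool and 1 FoxD1GC;Dicerfl/fl pool, and the arrays numbered 6. FoxD1GC is an allele in which the FoxD1 gene drives a fusion of eGFP and Cre recombinase in the renal stroma, and Dicerfl/fl is the floxed allele of the microRNA-processing enzyme Dicer. Controls were littermates without Cre, so the knock-in at FoxD1 and the loss of Dicer cannot be told apart. The methods give a 129-Elite background for the Cre line and C57BL/6J for the floxed line. The fusion is made in the stromal lineage, whereas the RNA came from the whole organ, and fewer cells of a type cannot be told apart from less RNA per cell.

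Annexins are cytoplasmic proteins that bind acidic phospholipids when calcium rises, and they take part in membrane repair, vesicle traffic and the linking of membranes to actin. S100 proteins are small calcium sensors that work mostly as dimers. Some of them grip the free amino-terminal tail of an annexin, and the complex can then bridge a pair of membranes. The best known pairs are annexin A2 with S100A10 and annexin A1 with S100A11, while S100A6 binds several annexins. In kidney, annexins are found in tubular and collecting duct epithelium as well as in interstitial cells.

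The arrays were alike in quality, with median intensities of 100.3 to 107.6 and 35.7% to 37.7% of probes detected at p under 0.01. Markers of stroma, nephron segments, collecting duct and endothelium were detected, except Cnn1 of smooth muscle, Calb1 of collecting duct and Kdr of endothelium, which were below detection on every array. Dicer1 itself was not called at its brightest probe (log2 change -0.28 ± 0.11 (SE), adjusted p = 0.24 by limma) and was lower at a dimmer one (-0.63 ± 0.13, adjusted p = 0.045). Where these probes lie relative to the floxed exons was not given in the sources used here, so neither checks the deletion. The Y-linked gene Eif2s3y differed between the pools of litter 2, at 8.43 in the control and 4.28 in the mutant, and its readings were alike between the pools of litter 1 (8.50 and 8.21) and of litter 3 (4.38 and 4.28), on the log2 scale. By this probe the litter 2 pools differed in male RNA, so sex and genotype cannot be told apart within that litter. Its effect on the changes was not tested.

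Anxa3 and Anxa4 rose in the mutant kidneys, by 1.45-fold and 1.54-fold, and they were the members called at an adjusted p under 0.05. Neither call held when all probes were tested regardless of detection (adjusted p = 0.055 and 0.074). Neither passed the study's threshold, a B-statistic above 0, when it was applied to the present fit (B = -0.79 and -0.57). In the authors' normalized values both were called (adjusted p = 0.0050 and 0.019 by limma), and B was not assessed there. Anxa1 was 1.52-fold higher but missed the threshold, and the readings of Anxa5 and Anxa6 were lower in every mutant pool than in any control pool without passing the test. None of the 3 tested S100 members passed the test, and their 95% intervals lay between -0.58 and 0.42 on the log2 scale. Of the 10 members, 9 had a probe detected on at least 3 arrays and were tested, 2 were called higher and 0 lower. Over all 9921 genes tested, 552 were called, which is 5.56%, with 2.41% called higher and 3.15% called lower. At an unadjusted p under 0.05, 3 members were higher and 2 lower by the same limma fit, against 9.99% and 10.2% of all tested genes. The median log2 change was 0.17 over the 9 tested members and 0.01 over all tested genes. In 5 members all mutant pools lay above all control pools, and in 2 they lay below, against 13.8% and 12.1% of all tested genes. The groups overlapped in the other 2, S100a6 and S100a10.

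**Figure D1:**
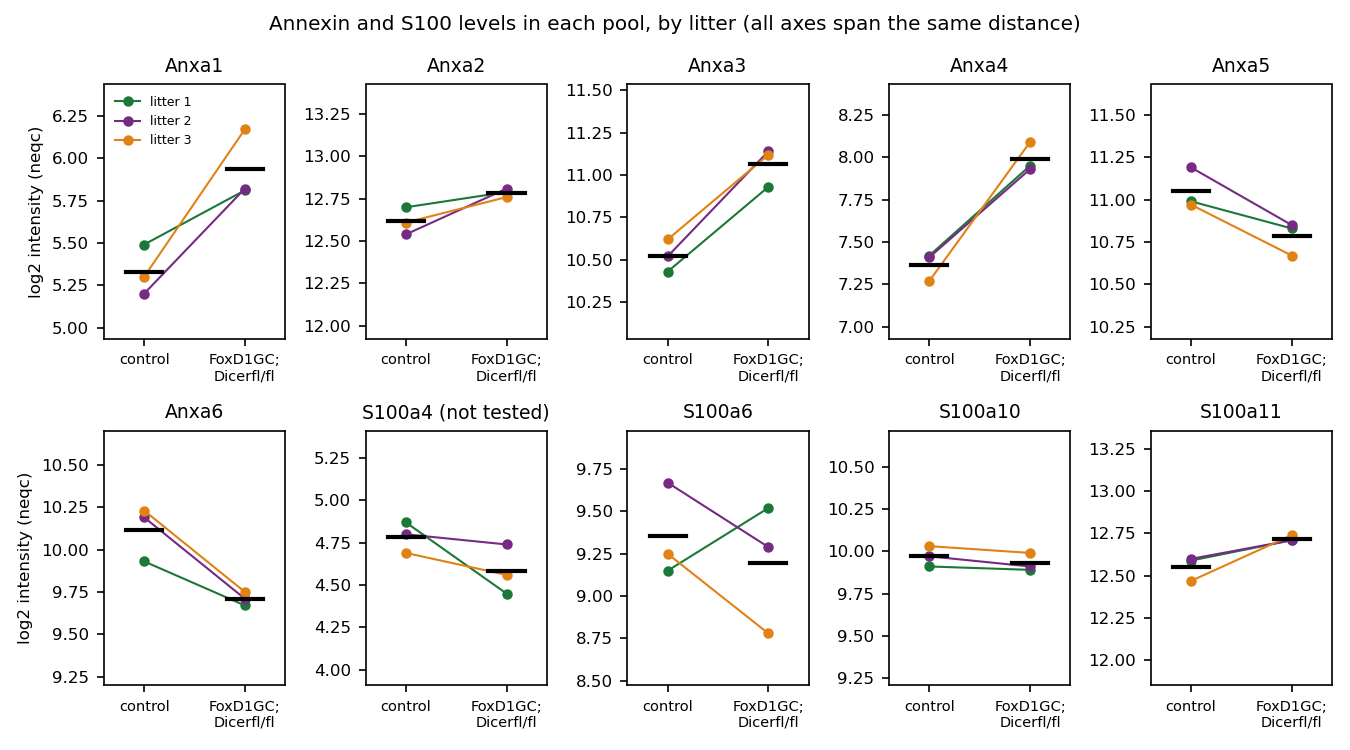
Normalized log2 intensity of each of the 10 members at its brightest tested probe (for S100a4, its single untested probe) in the 3 control and 3 FoxD1GC;Dicerfl/fl pools. Points are single pools, coloured lines join the pools of a litter and black bars are group means. Every panel spans the same distance, so slopes can be compared: Anxa1, Anxa3 and Anxa4 climb in all 3 litters, Anxa5 and Anxa6 descend, and S100a6 crosses.

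Annexin A3 is an annexin of epithelia and of neutrophil granules. The brightest Anxa3 probe gave log2 levels, for litters 1, 2 and 3 in that order as in all such series here, of 10.43, 10.52 and 10.62 in controls. In the mutant pools it read 10.93, 11.14 and 11.12, so every mutant pool was above every control pool. The differences within litters were close to each other, at 0.51, 0.62 and 0.50. The log2 change was 0.54 ± 0.10 (SE, n = 3 pools per group; adjusted p = 0.034 by limma). The second Anxa3 probe gave the same picture at a slightly smaller size. It read 10.14, 10.23 and 10.30 in controls and 10.62, 10.66 and 10.73 in mutants, a change of 0.45 ± 0.10 that missed the threshold (adjusted p = 0.060 by limma). The brighter probe kept its call without litter 3 (adjusted p = 0.049) but not without litter 1 (0.093) or litter 2 (0.24). Over 11 other settings, the change ranged from 0.49 to 0.56 and its adjusted p from 0.00096 to 0.24.

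Annexin A4 lies beneath the apical membrane of secretory and absorptive epithelia. Its brightest probe read 7.42, 7.41 and 7.27 in the control pools and 7.95, 7.93 and 8.09 in the mutant pools. The values were close together within each group, and the groups did not overlap. The litter differences were 0.53, 0.52 and 0.82, and the change was 0.62 ± 0.11 (SE, adjusted p = 0.031 by limma). The other tested Anxa4 probes did not show this. One read 6.92, 6.24 and 7.59 in controls and 7.15, 7.34 and 6.84 in mutants. Its litter differences ran from -0.75 to 1.10, so litters disagreed in direction, and its change was 0.19 ± 0.31 (adjusted p = 0.79). The third, designed from a cDNA clone, was near the detection limit at 5.03 to 5.59 and changed by 0.14 ± 0.15 (adjusted p = 0.68). Averaging the 3 probes gave 0.32 with an adjusted p of 0.22, and the call was also lost without litter 1 (0.064), litter 2 (0.17) or litter 3 (0.062). In the authors' normalized values the change was 0.38.

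**Figure D2:**
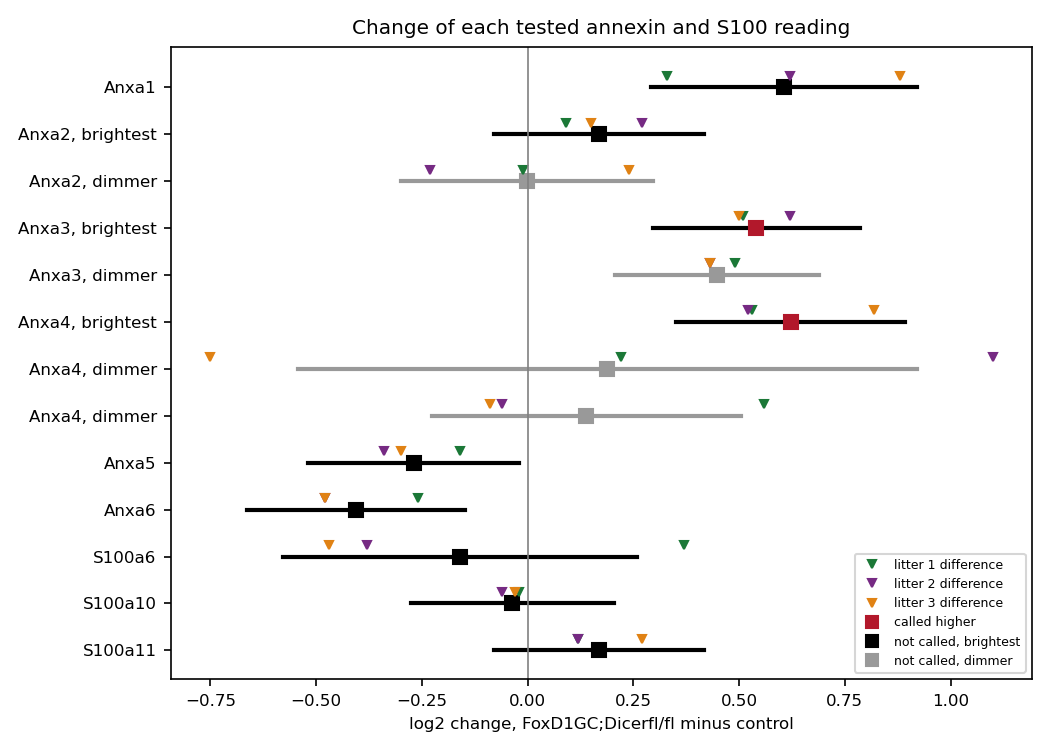
Log2 change (FoxD1GC;Dicerfl/fl minus control) of the 13 tested member probes. Squares are the fitted changes, lines their 95% confidence intervals and triangles the differences within each of the 3 litters, with dimmer probes of a gene in grey. The 2 called probes, of Anxa3 and Anxa4, sit at 0.54 and 0.62, and a dimmer Anxa4 probe has litter differences on both sides of 0.

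Annexin A1 is a glucocorticoid-induced protein that dampens inflammation through formyl peptide receptors. Anxa1 was the dimmest tested annexin member, with raw intensities of 119.6 to 147.5 and detection p-values of 0 to 0.0064. It read 5.49, 5.20 and 5.30 in controls and 5.81, 5.82 and 6.17 in mutants. All mutant pools were above all control pools, although the litter differences, 0.33, 0.62 and 0.88, were spread widely. The change was 0.61 ± 0.13 (SE, 95% interval 0.29 to 0.92, adjusted p = 0.054 by limma). In 6 of 11 other settings it passed the threshold. The lowest adjusted p, 0.019, came with median scaling, where all tested members had the same standard error (0.18). The change of Anxa1 was smaller, at 0.32, with a normal-exponential correction without negative controls, and 0.16 in the authors' normalized values.

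S100a11, which encodes the usual partner of annexin A1, moved in the same direction, by much less in the values used here. It read 12.59, 12.60 and 12.47 in controls and 12.71, 12.71 and 12.74 in mutants. The groups did not overlap, but the change was 0.17 ± 0.10 (SE, 95% interval -0.08 to 0.42, adjusted p = 0.43 by limma), and 0.08 with median scaling. The log2 ratio of Anxa1 to S100a11 was higher in the mutant pool of all 3 litters, by 0.21, 0.50 and 0.61 (mean 0.44 ± 0.21, SD). An exact 2-sided sign-flip test over litters gave p = 0.25 (0.25 adjusted over the 2 ratios tested), which is the smallest p that 3 litters allow. In the authors' normalized values the changes of Anxa1 and S100a11 were alike, at 0.160 and 0.155, so the higher ratio depends on the processing.

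Annexin A2 organizes actin at membranes and, with S100A10, presents plasminogen and its activator at the cell surface. By immunofluorescence at E18.5, the study found annexin A2 protein lacking in mutant stroma between nephron progenitors, while staining of the capsule looked unchanged. RNA of the whole kidney does not resolve these places. Anxa2 read 12.70, 12.54 and 12.61 in controls and 12.79, 12.81 and 12.76 in mutants, with raw intensities of 5775 to 7581. The mutant pools were above the control pools, yet by little, since the lowest mutant and the highest control pool were 12.76 and 12.70. The change was 0.17 ± 0.10 (SE, 95% interval -0.08 to 0.42, adjusted p = 0.43 by limma), and it was 0.08 with median scaling. A second, dim Anxa2 probe from a cDNA clone read 5.27 to 5.76 in controls and 5.51 to 5.75 in mutants, overlapping throughout (adjusted p = 1.00).

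S100a10, the partner that completes the annexin A2 complex, was the steadiest member. It read 9.91, 9.97 and 10.03 in controls and 9.89, 9.91 and 9.99 in mutants, and each mutant pool was within 0.06 of its litter's control. The change was -0.04 ± 0.10 (SE, 95% interval -0.28 to 0.20, adjusted p = 0.89 by limma). The log2 ratio of Anxa2 to S100a10 was higher in the mutant pools by 0.11, 0.32 and 0.18 in the 3 litters, and the exact 2-sided sign-flip test again gave p = 0.25, the smallest possible.

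The stretches upstream of S100a11 and Anxa2 are shown because both genes encode subunits of annexin complexes, had non-overlapping groups, and were the members whose windows held the motif TGACTCA. This is the core bound by AP-1, the dimer of Jun and Fos proteins, and it was searched on both strands, where it reads TGAGTCA. Each sequence is the 250 bases before the RefSeq start (GRCm38.p6, chr3:93520246-93520495 and chr9:69453433-69453682, both on the plus strand), written from 5′ to 3′ with the motif in capitals.
S100a11: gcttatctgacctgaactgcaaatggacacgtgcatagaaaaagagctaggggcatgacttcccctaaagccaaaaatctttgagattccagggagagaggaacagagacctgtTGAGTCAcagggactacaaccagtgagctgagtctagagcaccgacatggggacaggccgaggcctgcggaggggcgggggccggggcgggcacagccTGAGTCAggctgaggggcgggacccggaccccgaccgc
Anxa2: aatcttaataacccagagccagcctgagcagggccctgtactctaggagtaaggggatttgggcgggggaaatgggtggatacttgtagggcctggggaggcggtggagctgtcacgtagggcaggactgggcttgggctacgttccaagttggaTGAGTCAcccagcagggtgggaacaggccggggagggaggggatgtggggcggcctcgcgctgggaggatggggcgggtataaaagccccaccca
In S100a11 the motif lay at -136 to -130 and at -38 to -32 from the start, and in Anxa2 at -95 to -89. Of all 32851 windows of the same length, 4.46% held it. The windows of Anxa1, Anxa4, Anxa5, S100a4 and S100a6 held none, and Anxa3, Anxa6 and S100a10 were not in the table. The TATA box motif TATAAA, searched on both strands, was in the windows of Anxa1, Anxa2 and S100a4 and in 12.4% of all windows, and the motifs did not overlap. Both motifs were chosen after the members' windows had been looked at, and a match describes letters, not binding.

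For Anxa4, the called member with an entry, the table held a pair of start sites, and their windows are shown because the disagreeing Anxa4 probes could not be assigned to either transcript. Both lie on the minus strand of chromosome 6 (chr6:86793585-86793834 for the upstream start and chr6:86775115-86775364 for the internal one).
Anxa4 upstream start: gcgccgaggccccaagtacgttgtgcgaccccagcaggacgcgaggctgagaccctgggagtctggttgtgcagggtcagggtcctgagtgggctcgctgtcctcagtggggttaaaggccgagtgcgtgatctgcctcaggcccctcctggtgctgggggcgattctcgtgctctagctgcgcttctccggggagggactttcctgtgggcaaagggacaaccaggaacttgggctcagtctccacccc
Anxa4 internal start: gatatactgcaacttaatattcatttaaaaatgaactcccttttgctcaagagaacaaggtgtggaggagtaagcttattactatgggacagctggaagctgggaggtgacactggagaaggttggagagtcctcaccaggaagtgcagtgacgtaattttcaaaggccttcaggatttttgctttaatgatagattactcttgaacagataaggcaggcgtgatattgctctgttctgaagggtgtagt
They differ in base composition, with 64.8% G and C and 13 CpG dinucleotides upstream of the first and 42.0% and 2 upstream of the second.

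Anxa5 and Anxa6 were the members whose mutant pools all lay below the controls. Annexin A5 is the annexin used in the laboratory to mark phosphatidylserine on dying cells. It read 10.99, 11.19 and 10.97 in controls and 10.83, 10.85 and 10.67 in mutants, a change of -0.27 ± 0.10 (SE, 95% interval -0.52 to -0.02, adjusted p = 0.22 by limma). Anxa6 encodes the longest annexin, with a doubled core, which binds membranes in muscle and mesenchymal cells. It read 9.93, 10.19 and 10.23 in controls and 9.67, 9.71 and 9.75 in mutants, with litter differences of -0.26, -0.48 and -0.48. The change was -0.41 ± 0.11 (adjusted p = 0.096 by limma). Anxa6 was called lower with the normal-exponential correction (adjusted p = 0.025), in the authors' normalized values (0.021) and with an intensity trend (0.014), at changes of -0.39, -0.38 and -0.41. Both other Anxa6 probes, from cDNA clones, failed the detection filter. One was detected on 2 control arrays and 0 mutant arrays and the other on 0 arrays.

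S100A6, or calcyclin, is an S100 protein of fibroblasts and epithelia. S100a6 read 9.15, 9.67 and 9.25 in controls and 9.52, 9.29 and 8.78 in mutants. It was higher in the mutant pool of litter 1, by 0.37, and lower in those of litters 2 and 3, by -0.38 and -0.47, so the groups overlapped. The change was -0.16 ± 0.18 (SE, 95% interval -0.58 to 0.26, adjusted p = 0.68 by limma). Without litter 1 it was -0.42 (adjusted p = 0.18), and without litters 2 and 3 it was -0.05 and -0.01. S100A4, known as fibroblast-specific protein, could not be assessed. Its probe read 4.87, 4.80 and 4.69 in controls and 4.45, 4.74 and 4.56 in mutants, with detection p-values of 0.024 to 0.18, and it passed detection on 0 arrays.

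Of 18 other annexin and S100 genes on the array, 9 were tested, 2 were called higher and 1 lower, and 8 were not detected on any array. Over all tested genes, 2.41% were called higher and 3.15% lower. The median change of the 9 was 0.54, against 0.01 over all tested genes. S100a8 and S100a9, which encode the subunits of calprotectin, a protein of neutrophils and monocytes, had the largest changes among tested genes of both families. S100a8 read 7.91, 7.93 and 7.66 in controls and 9.38, 9.66 and 9.48 in mutants, a 3.18-fold rise (log2 change 1.67 ± 0.12, adjusted p = 0.0014 by limma). S100a9 read 6.16, 6.45 and 6.18 against 7.86, 8.10 and 8.06, a 3.34-fold rise (1.74 ± 0.11, adjusted p = 0.00096). For both genes the lowest mutant pool was more than 1 log2 unit above the highest control pool. Both were called in all 11 other settings, but the size depended on the values used: in the authors' normalized values the log2 changes were 1.29 for S100a8 and 0.90 for S100a9. Anxa9, an annexin that has lost the usual calcium-binding sites, was 1.80-fold lower (-0.85 ± 0.12, adjusted p = 0.014). It was dim, at 6.05 to 6.16 in controls and 5.17, 5.55 and 5.0 in mutants, was detected on 3 control and 2 mutant arrays, and changed by -0.23 (adjusted p = 0.057) in the authors' normalized values. Without litter 2 it was not called (adjusted p = 0.071).

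The brightest uncalled relatives were S100a1, Anxa11 and S100a13. S100a1, a calcium sensor best known from muscle, read 9.81, 10.24 and 10.58 in controls and 10.67, 10.91 and 10.81 in mutants, without overlap, and changed by 0.58 ± 0.14 (adjusted p = 0.076). It was called higher in 5 of 11 other settings, with the normal-exponential correction (0.015), the authors' values (0.039), an intensity trend (0.0068), median scaling (0.043) and without litter 3 (0.015). Anxa11 changed by 0.07 ± 0.13 (adjusted p = 0.81) and S100a13, which takes part in the release of growth factors without a signal peptide, by -0.24 ± 0.10 (adjusted p = 0.27). Anxa13, an annexin of intestinal and renal epithelium named here after its values were seen, changed by 0.73 ± 0.22 (adjusted p = 0.13).

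The S100a members lie in a cluster of mouse chromosome 3 that also holds genes of the cornified envelope. From S100a1 to S100a10 the RefSeq annotation lists 70 protein-coding genes, 15 of them S100 genes. Changes along this order were not uniform. S100a6 (-0.16) sits 3 places from S100a9 (1.74), and S100a11 (0.17) and S100a10 (-0.04) lie beyond 56 further genes. Of the 55 genes that are not S100 genes, 44 were on the array, 4 were tested and 2 were called higher, against 2.41% of all tested genes. The called genes were Sprr2f (2.10 ± 0.13, adjusted p = 0.0010) and Sprr1a (1.5 ± 0.27, adjusted p = 0.030), small proline-rich proteins of stratified epithelium. Sprr2 genes resemble one another closely, so that Sprr2f is uncertain as a single gene.

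**Figure D3:**
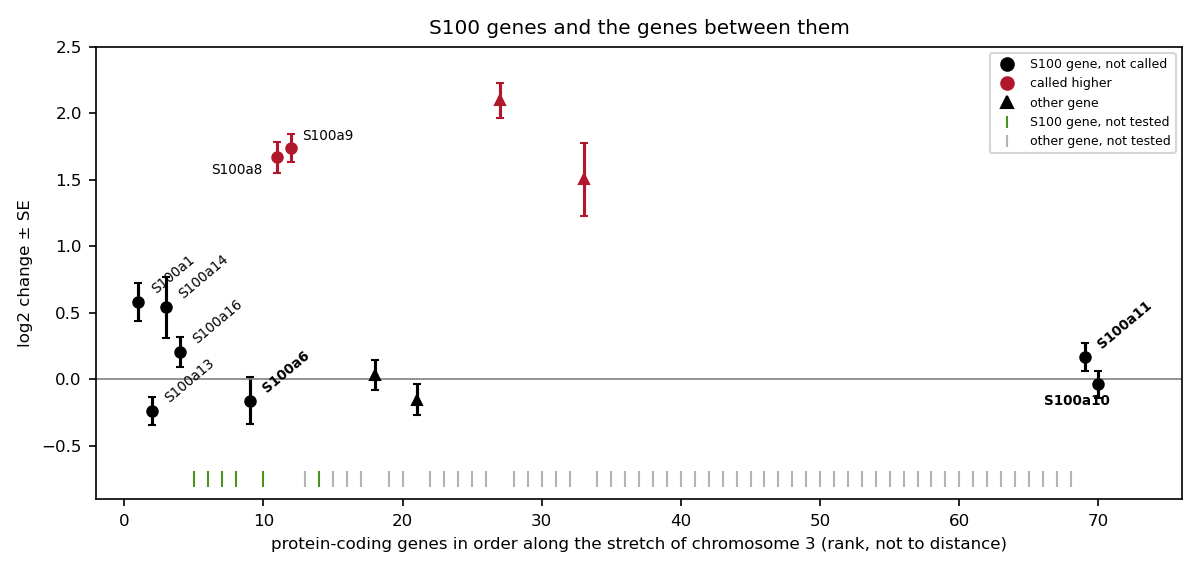
Log2 change ± SE of the tested genes among the 70 protein-coding genes from S100a1 to S100a10, in their order on chromosome 3 (horizontal axis, rank). Circles are S100 genes, with members in bold, triangles other genes, and ticks genes that were not tested. S100a8, S100a9, Sprr2f and Sprr1a, between 1.5 and 2.10, stand above the members S100a6, S100a11 and S100a10, between -0.16 and 0.17.

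Of 26 genes of annexin and S100 partners and receptors (the plasminogen system, membrane repair, channels carried by S100A10, formyl peptide and RAGE receptors), 24 were on the array and 17 were tested. By limma 0 were called, against 5.56% of all tested genes. At an unadjusted p under 0.05, 3 were higher and 2 lower, against the 9.99% and 10.2% of all tested genes. The 3 include Fpr2, which passed the detection filter through the mutant arrays alone. The median change of the 17 was 0.03. The brightest were Myh9, the non-muscle myosin heavy chain that S100 proteins bind, Chmp4b, an ESCRT subunit of membrane repair, and Plat, the tissue plasminogen activator. Their changes were -0.08 ± 0.16, 0.10 ± 0.10 and 0.05 ± 0.10, with adjusted p-values of 0.83, 0.66 and 0.83. Ahnak, the giant scaffold bound by annexin A2 with S100A10, was named after its values were seen. It read 9.13, 9.50 and 9.96 in controls and 8.91, 8.74 and 8.84 in mutants, below the controls in every litter (-0.70 ± 0.17, adjusted p = 0.079), while its dimmer tested probes changed by -0.04 and -0.55. Ahnak was called lower in 4 of 11 other settings, with median scaling (adjusted p = 0.0029), the normal-exponential correction (0.018), an intensity trend (0.010) and without litter 1 (0.021), and the mean of its probes changed by -0.43 (0.18). Fpr2, a receptor of annexin A1, was detected on 0 control and 3 mutant arrays and read 4.70 to 5.10 in controls and 5.16 to 5.30 in mutants (adjusted p = 0.15). It too was named for its values.

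The genes whose levels followed Anxa3 most closely over the 6 arrays were Ptk7, a pseudokinase of planar cell polarity (Pearson's r = 0.997), Ovol1, a zinc finger factor of epithelia (0.996), and Nipal2 (0.994). Those nearest to Anxa4 were Retnlg, a resistin-like protein of neutrophils (0.997), Cdh1, the E-cadherin of epithelia (0.996), and Fcna, a ficolin of macrophages (0.992). All points share litter and genotype, so each r mostly restates the group difference. Retnlg was detected on 0 control and 3 mutant arrays, at 4.47 to 4.68 and 5.71 to 6.03.

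Several cell type marker lists differed between the groups as well, and the intensity sums given here cover every listed gene on the array at its brightest probe. Over all tested genes, 2.41% were called higher and 3.15% lower. Of 8 tested macrophage markers 7 were called higher, and the summed intensity of the macrophage list was 1083 to 1368 in controls and 2395 to 2688 in mutants, with Ptprc not detected. Of 2 tested neutrophil markers 1 was called higher, Retnlg, which passed the detection filter through the mutant arrays alone. Mpo, Elane, Camp, Csf3r and Cxcr2 were not detected on any array. The neutrophil list summed to 63.0 to 67.1 in controls and 109 to 124 in mutants. Most of that rise was Retnlg (mean log2 level 4.59 in controls and 5.83 in mutants), so the sum mainly restates that gene. Of 5 nephron progenitor markers 2 were called higher, Cited1 and Eya1, with a median change of 0.52 and sums of 604 to 658 and 732 to 870. Collecting duct markers were split, with 2 of 9 called higher (Krt8 and Krt19), 2 lower (Aqp2 and Elf5) and a median change of -0.03. Their sum, 6348 to 6922 in controls and 7023 to 7852 in mutants, went the other way from the median. Krt8 (log2 change 0.59 ± 0.11) gave the largest part of that rise, whereas 5 of the 9 changes were negative. In the direction of the Anxa5 and Anxa6 readings, stromal markers summed to 8324 to 9355 and 6046 to 7298, with 3 of 10 called lower. The change was negative for 8 of the 10 and near 0 for Foxd1 (0.04 ± 0.22) and Meis2 (0.01 ± 0.15). Litter differences of Foxd1 disagreed in direction, at -0.61, 0.10 and 0.62, so this reading does not settle its direction. The study reported less FoxD1 transcript in E18.5 mutant kidneys by quantitative PCR, and reduced FoxD1-positive stroma by staining. Of 6 smooth muscle and pericyte markers 3 were called lower, Acta2, Notch3 and Pdgfrb, and the sum of 8853 to 9730 against 2894 to 6411 was mostly Acta2 (348 to 411 against 212 to 335 without it). Myh11, Tagln and Rgs5 overlapped between the groups. Proximal tubule markers, 5 of 5 lower, summed to 9376 to 13620 and 4549 to 6457. Of 5 tested urothelium markers 1 was called higher and 0 lower, with a median change of -0.10. Among 3 loop of Henle, 3 podocyte, 5 endothelium and 2 erythroid markers tested, 0 were called. The part of these cell types in the members' changes was not tested.

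**Figure D4:**
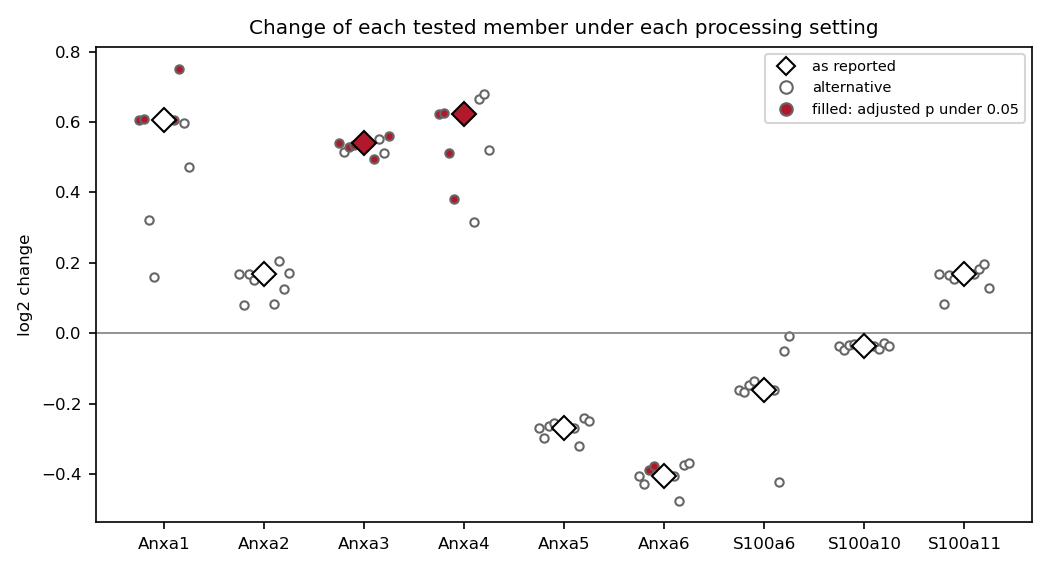
Log2 change of each of the 9 tested members as reported (diamonds) and under each of 11 other settings (circles), filled where the adjusted p is under 0.05. No member changes sign. Anxa3 and Anxa4 keep positive changes of 0.49 to 0.56 and 0.32 to 0.68 but not always their call, and Anxa1 spans 0.16 to 0.75.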

How the data were processed

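Whole-kidney RNA was read on Illumina MouseWG-6 v2.0 arrays. The authors deposited non-normalized probe intensities with a detection p-value per array (a comparison with negative-control beads) and log2 values normalized with lumi, which served as an alternative. Of 45281 rows, 8 damaged ones were dropped. Of the remaining 45273 probes, 34877 carried 1 gene symbol, 18 several and 10378 none. Intensities were normalized with neqc (offset 16) in limma 3.58.1 under R 4.3.3. The 16899 probes detected at p under 0.01 on at least 3 of 6 arrays were fitted with genotype and litter, after the study's linear model, followed by eBayes (2 residual and 4.76 prior degrees of freedom) and Benjamini-Hochberg adjustment over all of them. A gene was read through its brightest tested probe and called at an adjusted p under 0.05. The labels give the litter, and pools of a litter deviated together (r = 0.19, 0.18 and 0.14). Members and lists were chosen with earlier results of these data known. The text names every member, each called relative or partner with up to 3 of the brightest uncalled ones, and for each called member the 3 genes of highest r. The code was tested on simulated data. Precision is limited by the number of arrays. Promoters came from RefSeq (GRCm38.p6), with 7 of 10 members matched.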

Additional observations from a re-analysis of the deposited data

How the results depend on the processing

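No tested member reversed its direction under any of the 11 alternatives. Leaving out litter as a block gave 3 members called higher and 0 lower, so that without the replicate block Anxa1 was gained (adjusted p = 0.044), and 247 genes higher and 281 lower. Members called higher numbered 0 without the detection filter, 0 by the study's threshold of B above 0 applied to the present fit, and 0 to 1 with a litter left out. Members called lower numbered 1 with the normal-exponential correction, 1 in the authors' normalized values and 1 with an intensity trend, in each case Anxa6. Over all genes, 361 were called higher and 473 lower with the normal-exponential correction, 110 and 155 without the filter, 372 and 493 with the trend, and 142 and 201 by B above 0. With a litter left out there were 32 to 275 higher and 44 to 313 lower, the fewest without litter 2, after normalizing the remaining 4 arrays anew. Among the other annexin and S100 genes, 5 were called higher with median scaling. Anxa9 was not called in the authors' values, without the filter (0 called lower in both) or with detection required on all arrays (0), where it was not tested, and 0 to 1 of these genes were lower with a litter left out. Of the partners, 1 was higher (Dlc1) and 1 lower with median scaling, 1 lower with the normal-exponential correction, 1 lower with the trend and 0 to 1 lower with a litter left out, in each case Ahnak for the lower one. Anxa3 lost its call with median scaling (adjusted p = 0.074) and without the filter (0.055), and Anxa4 without the filter (0.074). With median scaling, every tested member, relative and partner had the same standard error (0.18). Adjusted p-values in that setting therefore followed the size of the change alone, whatever the agreement between litters. The cause of the lost calls was not tested.

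With 3 pools per group and a median standard error of 0.12 on the log2 scale, small changes of the bright members Anxa2, S100a10 and S100a11 could not be resolved, and the changes of the dim Anxa1, Anxa9 and S100a9 readings were smaller with the normal-exponential correction (which also used an offset of 50) and in the authors' values. The pools of a group came from separate litters. With litter in the model, p-values rest on the spread of the differences within litters, moderated by the spread of the other probes.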
